A study of Mus musculus with 2 samples.

Results

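The 33 protein-coding genes described here encode the SR proteins, their relatives Tra2a and Tra2b, and the heterogeneous nuclear ribonucleoproteins (hnRNPs) of the mouse. They were chosen by gene symbol from the 21911 protein-coding genes of GENCODE release M21 on mm10, with earlier results of these data known. Of them, 13 carry an Srsf or Tra2 symbol and 20 an Hnrnp symbol. The series is a ChIP-seq experiment for histone H3 trimethylated at lysine 36 (H3K36me3) in E14TG2a.4, a male embryonic stem (ES) cell line of strain 129/Ola, with 2 biological replicates, 1 group, no treatment and no genotype other than that of the line. The age on the labels, 3.5 days at an embryonic stage, belongs to the embryo behind the line and is no time in culture. Both replicates derive from 1 donor line, so they sample cultures and not animals. Each replicate has its own list of peaks that its pseudoreplicates supported, 107779 peaks over 139 Mb in replicate 1 and 98185 peaks over 127 Mb in replicate 2. Read depth is unknown, and a gap between replicates may hold a gap in depth.

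SR proteins bind short exonic sequences of a pre-mRNA through RNA-recognition motifs and recruit the splicing machinery through an arginine- and serine-rich tail, whereas hnRNPs coat nascent transcripts and often block or redirect splice sites. Many genes of both families limit their own output through "poison" exons, which bring in an early stop codon and send the transcript to nonsense-mediated decay. H3K36me3 is laid down by SETD2, a methyltransferase that travels with elongating RNA polymerase II, so it marks the bodies of transcribed genes, rises toward their 3′ part and is low at promoters.

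Because poison exons are well-known regulatory sequences of these genes, examples that the annotation pairs with a stop codon are shown first, for 7 of the 9 genes that have one. Each line gives the last 20 intron bases and then the exon up to the early stop codon of the decay transcript, 5′ to 3′ on the gene's strand, read from the GRCm38 (mm10) genome, with the stop codon in capitals. The regions are chr17:29039434-29039487 (plus strand, Srsf3), chr17:80205054-80205101 (minus, Srsf7), chr4:131884256-131884390 (plus, Srsf4), chr6:49252965-49253128 (minus, Tra2a), chr16:22259181-22259281 (minus, Tra2b), chr5:115328327-115328428 (plus, Srsf9) and chr17:80044976-80045042 (minus, Hnrnpll). The first 5 exons lay at least partly inside H3K36me3 peaks in both replicates, and the last 2 lay outside peaks in both. In Tra2a, replicate 2 covered only exon bases past the stop codon, so none of its printed bases lay in a peak there. The exons of Srsf11 and Hnrnpl, covered whole in both replicates, are not printed.
Srsf3: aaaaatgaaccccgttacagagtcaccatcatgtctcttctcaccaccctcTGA
Srsf7: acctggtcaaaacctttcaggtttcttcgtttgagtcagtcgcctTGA
Srsf4: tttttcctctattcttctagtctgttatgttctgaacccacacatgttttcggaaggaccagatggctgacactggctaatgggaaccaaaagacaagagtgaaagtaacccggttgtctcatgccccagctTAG
Tra2a: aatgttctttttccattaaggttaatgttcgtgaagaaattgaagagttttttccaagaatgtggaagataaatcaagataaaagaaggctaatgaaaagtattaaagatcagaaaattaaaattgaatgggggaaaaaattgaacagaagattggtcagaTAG
Tra2b: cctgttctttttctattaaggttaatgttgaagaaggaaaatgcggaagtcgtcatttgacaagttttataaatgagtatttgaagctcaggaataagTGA
Srsf9: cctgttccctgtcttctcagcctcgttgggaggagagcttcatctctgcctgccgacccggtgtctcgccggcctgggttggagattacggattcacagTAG
Hnrnpll: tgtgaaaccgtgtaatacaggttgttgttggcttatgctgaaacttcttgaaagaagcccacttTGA

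All 7 introns end in ag before the exon. The exon bases up to and including the stop number 34, 28 and 47 in Srsf3, Srsf7 and Hnrnpll, and 82, 115, 81 and 144 in Srsf9, Srsf4, Tra2b and Tra2a. The paralogs Tra2a and Tra2b share a run of 15 identical bases across the intron end and the exon start, the longest run shared by any pair of the decay exons compared.

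H3K36me3 covered the body of nearly every gene of both families. Of the 33 genes, 31 (93.9%) had at least 10% of the gene body in peaks in each replicate, the rule for a marked gene used throughout, against 37.2% of all coding genes and 42.6% of the 14628 coding genes whose lengths lie in the range of these 33. At least 50% of the body was covered in each replicate in 26 of the 33, against 19.3% of all coding genes. The median covered share of the 33 was 72.6% ± 1.11 (SD, n = 2). Over marked genes only, it was 73.4% ± 1.29 for the 31 genes here, 55.0% ± 2.91 for all 8155 marked coding genes and 59.9% ± 1.99 for marked genes of the same length range. Nothing was compared between conditions, so these are descriptions with the spread between 2 replicates and carry no test.

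Srsf12 and Hnrnph2 were the 2 genes that were not marked. Srsf12 (chr4:33208991-33233340, plus strand), a little-studied SR-like gene, lacked any covered base in the 2 replicates and in the other deposited mm10 peak sets. Hnrnph2 (chrX:134601179-134607060, plus strand), an X-linked paralog of the G-run binding protein gene Hnrnph1, was covered over 22.6% of its body in replicate 1 and 9.37% in replicate 2, so it sat just outside the threshold in 1 replicate only. The lowest marked gene, Hnrnpa0, was well inside it at 39.7% and 36%. Hnrnpa0 is the only gene of the 33 with a single exon block.

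**Figure D1:**
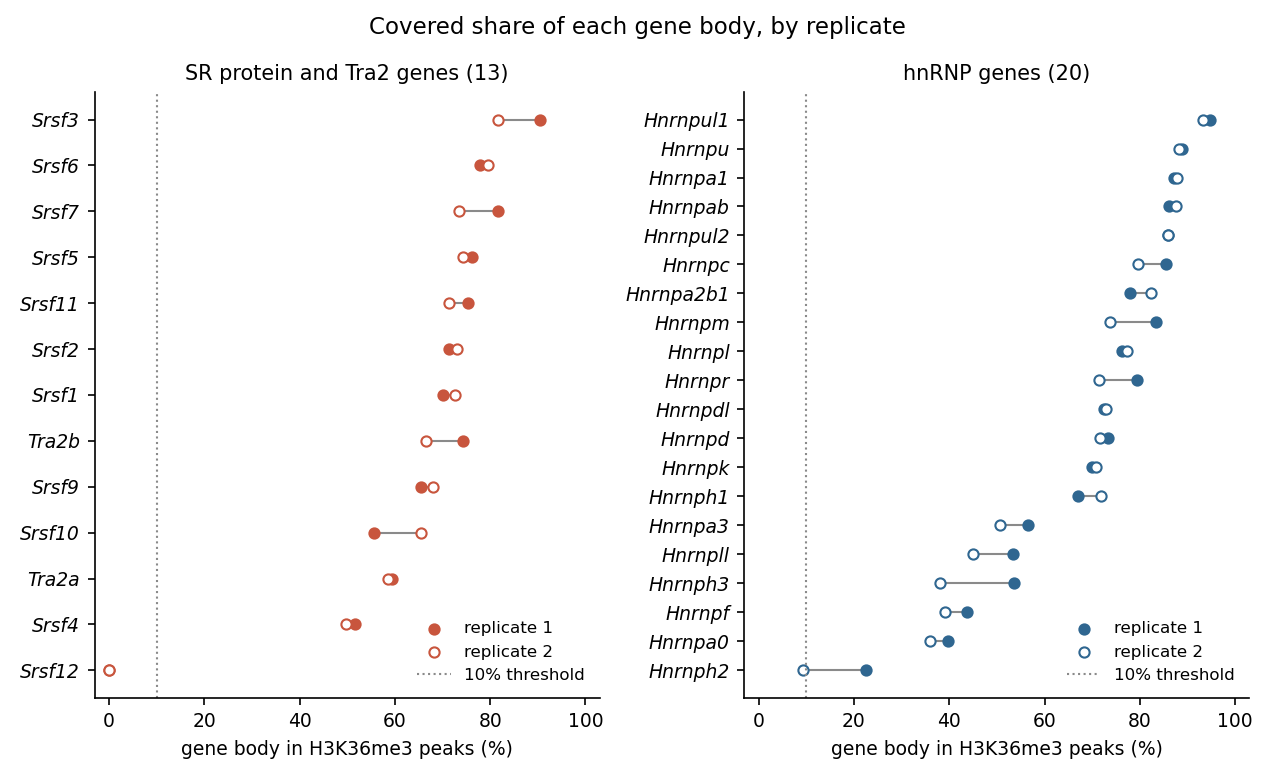
Share of each gene body in H3K36me3 peaks (x axis, percent) for the 13 SR protein and Tra2 genes and the 20 hnRNP genes, filled points for replicate 1 and open points for replicate 2, joined by a line. Hnrnpul1 is highest at 94.6% and 93.2%, and Srsf12 is at 0 and Hnrnph2 at 22.6% and 9.37%.

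Among the classical SR proteins, which activate exons, Srsf3 (chr17:29032628-29043373, plus strand) was covered most, over 90.5% in replicate 1 and 81.6% in replicate 2. Srsf6 followed with 77.9% and 79.5%. Srsf7, whose protein carries a zinc knuckle beside its RNA-recognition motif, had 81.5% and 73.5%. Since Srsf3 and Srsf7 were higher in replicate 1 and Srsf6 in replicate 2, the order of these 3 genes changed with the replicate. Srsf5, with 76.1% and 74.3%, Srsf2, with 71.3% and 73.0%, and Srsf1, the founding splicing factor of the family, with 70.2% and 72.5%, came next, and the ranges of Srsf2 and Srsf1 overlapped. Srsf9 had 65.6% and 68.0%, and Srsf4, the longest classical member at 28.1 kb, had the least of the marked SR genes, 51.6% and 49.7%.

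The SR-like genes spanned a similar range. Srsf11, which encodes a partner of U2AF, had 75.4% and 71.4%, and Srsf10, whose protein acts as a splicing repressor when dephosphorylated, had 55.7% and 65.6%. Tra2b and Tra2a encode the vertebrate homologs of the fly sex-determination factor Transformer-2, which bind GAA-rich exonic enhancers. Tra2b had 74.3% and 66.6%, above Tra2a with 59.3% and 58.6% in both replicates. The median over the 12 marked SR and Tra2 genes was 72.4% ± 0.619, and over the 19 marked hnRNP genes 74.6% ± 2.32.

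The hnRNP U group was covered over most of its length. Hnrnpul1 (chr7:25721165-25754757, minus strand) was covered over 94.6% and 93.2% of its 33.6 kb, and it was the only gene of the 33 with at least 90% in each replicate. Hnrnpu, which encodes the nuclear scaffold attachment factor SAF-A, had 88.8% and 88.2%, and Hnrnpul2 had 86.0% in both replicates, a spread of 0.035 (SD). The 3 genes differed by more than their replicate spread, in the order Hnrnpul1, Hnrnpu, Hnrnpul2.

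The hnRNP A/B group was split. Hnrnpa1, a widely studied silencer of exons, had 87.2% and 87.9%, Hnrnpa2b1 had 78.0% and 82.3%, and Hnrnpab had 86.1% and 87.5%. Hnrnpa3 (chr2:75659261-75669407, plus strand) had 56.6% and 50.7%, and with Hnrnpa0 it lay below the other 3 in both replicates. Hnrnpab shares 65.1% of its body with Phykpl, a coding gene on the other strand that was itself covered over 94.3% ± 0.835, so the mark there cannot be assigned to either gene.

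The F/H group, which binds runs of G, held further low values. Hnrnph1 had 66.9% and 71.9%. Hnrnph3 had 53.5% and 38.0%, the widest gap between replicates of any marked gene here, and Hnrnpf (chr6:117900324-117925622, plus strand) had 43.7% and 39.2%. With Hnrnph2, all 3 lay below Hnrnph1 in both replicates.

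The remaining hnRNP genes were covered over most of their bodies apart from Hnrnpll. Hnrnpc, whose protein binds uridine tracts, had 85.5% and 79.5%, Hnrnpm 83.4% and 73.8%, and Hnrnpr 79.5% and 71.4%. These are among the longest genes of the set, from 30.6 kb for Hnrnpc to 48.5 kb for Hnrnpr, and all 3 were higher in replicate 1. Hnrnpl, whose protein binds CA-rich repeats, had 76.2% and 77.2%, Hnrnpk, a KH-domain protein gene, 69.9% and 70.7%, and Hnrnpd, whose protein binds AU-rich elements of short-lived mRNAs, 73.4% and 71.6%. Hnrnpdl, the neighbour and paralog of Hnrnpd, had 72.5% and 73.0%, and Hnrnpll, a paralog of Hnrnpl studied in lymphocyte splicing, had 53.4% and 45.0%.

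Differences between replicates were modest. The median difference over the 31 marked genes was 2.46 percentage points, and 3.68 over all marked coding genes. Replicate 1 was the higher one in 19 of the 31 genes here and in 5608 of the 8155 marked coding genes.

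The height of the peaks ranked the genes in a related way. The authors' fold enrichment of each peak was averaged over all bases of a gene, with 0 outside peaks. The median over the 31 marked genes was 6.29 in replicate 1 and 7.19 in replicate 2, against 3.55 and 4.11 over all marked coding genes, and 16 of the 31 fell in the top 25% of marked coding genes. Hnrnpab was highest with 12.8 and 18.5, followed by Hnrnpul1 with 12.1 and 15.9. Srsf3, with 11.5 in both, came next in replicate 1, and in replicate 2 it stood below others such as Hnrnpa1 with 14.6 and Hnrnpu with 13.8. Hnrnpa0 was lowest among the marked genes, with 2.24 and 2.09.

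Some genes were covered by few broad peaks and others by many narrower ones. In Hnrnpul1 the widest peak measured 13.5 kb in replicate 1 and 13.2 kb in replicate 2, and in Hnrnpl 1 peak of 11.8 kb and 11.6 kb held all covered bases. The covered part of Hnrnpr was broken into 27 peaks in each replicate. In 15 of the 32 genes with a peak, both replicates put the summit of the highest peak within 100 bp of each other, and the median distance was 138.5 bp. The summits inside the genes lay at a median 71.5% of the body in replicate 1 and 69.3% in replicate 2. Summits were not taken for other coding genes, so it is not known whether these values are usual.

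To give the sequence under the strongest signal, the summits of the highest peaks are shown for 3 genes. They have the highest averaged fold, by the lower of the 2 replicates, among genes whose replicate 1 summit passed 2 conditions. The summit lay inside the gene and away from UTRs, and it lay outside exons if the gene overlaps another coding gene. The replicates placed the summits 3 bp (Hnrnpul1), 2 bp (Srsf3) and 29 bp (Hnrnpl) apart. Each is 101 bases on the gene's strand, with the summit base of replicate 1 in capitals, at chr7:25747749-25747849 (minus, an intron of Hnrnpul1), chr17:29040335-29040435 (plus, Srsf3, in an exon of retained-intron transcripts and an intron of the coding ones) and chr7:28813679-28813779 (plus, an intron of Hnrnpl).
Hnrnpul1: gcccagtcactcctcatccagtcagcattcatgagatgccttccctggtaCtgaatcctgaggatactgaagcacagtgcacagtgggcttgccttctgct
Srsf3: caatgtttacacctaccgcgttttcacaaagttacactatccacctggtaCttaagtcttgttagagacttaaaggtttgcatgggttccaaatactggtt
Hnrnpl: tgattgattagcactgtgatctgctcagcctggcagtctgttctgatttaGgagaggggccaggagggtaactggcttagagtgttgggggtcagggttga

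The peaks at these summits had a fold of 15.2 and 19 in Hnrnpul1, 12.9 and 15.6 in Srsf3 and 13.7 and 17.8 in Hnrnpl, in replicates 1 and 2. Their GC content differed, with 53.5% in Hnrnpul1, 39.6% in Srsf3 and 52.5% in Hnrnpl. The Srsf3 summit lay 72.2% of the way along the gene, between the poison exon printed above and the next annotated decay segment, and the Hnrnpul1 summit lay only 20.7% along.

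Cover was low in the 5′ part and high after it. Over the 30 marked genes of at least 3 kb, each divided into 3 equal parts, 42.6% ± 2.18 of the 5′ part of the body, 86.0% ± 2.06 of the middle part and 86.8% ± 0.253 of the 3′ part lay in peaks. All marked coding genes had 32.7% ± 2.41, 59.4% ± 2.12 and 68.8% ± 1.24. The 3′ part exceeded the 5′ part in both replicates in 27 of the 30 genes, against 85.0% of marked coding genes, so the direction was shared with most genes. With the body divided into 10 equal parts, cover rose from 11.6% ± 2.46 in the first to 83.1% ± 1.62 in the fourth, while marked coding genes were at 52.7% ± 2.4 in the fourth.

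**Figure D2:**
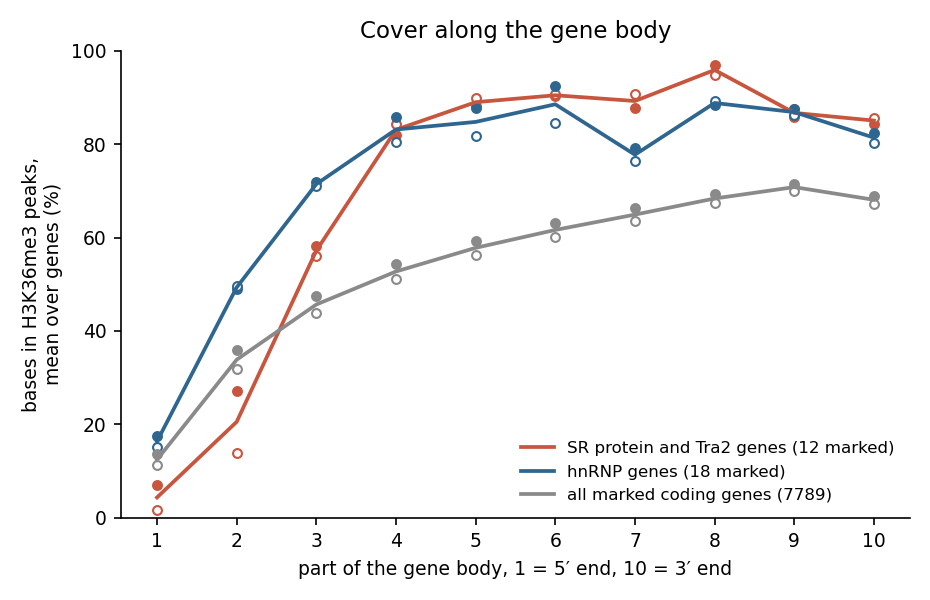
Percent of bases in H3K36me3 peaks (y axis) in 10 equal parts of the gene body from the 5′ end (part 1) to the 3′ end (part 10), as means over 12 SR and Tra2 genes, 18 hnRNP genes and 7789 marked coding genes; lines join the means of the replicates, filled points are replicate 1 and open points replicate 2. In part 2 the SR genes are at 27.2% and 13.8% and the hnRNP genes at 48.9% and 49.7%, and both sets are near 83% in part 4.

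As a share of gene length, the SR genes had the emptier start. Their 5′ part was covered over 35.0% and 29.8% in replicates 1 and 2, and that of the hnRNP genes over 50.2% and 48.5%, while their 3′ parts had 89.2% and 89.8% against 85.5% and 84.5%. The step from 5′ to the 3′ part was 57.1 points ± 4.11 in SR genes and 35.6 points ± 0.473 in hnRNP genes, and the replicates of these families did not overlap. In bases, the first covered base lay a median 1379 bp and 1747 bp from the start in SR genes and 1672 bp and 1646 bp in hnRNP genes, which overlap. The families differ in gene length, with medians of 8.99 kb and 13.7 kb for marked genes, and the part of length in this gap was not tested.

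Individual genes filled this range. In Srsf4 the 5′ part held 4.70% and 0% and the 3′ part 81.9% and 82.7%. In Hnrnpf the 5′ part was empty in both replicates, and cover first appeared 8688 bp and 9247 bp from the annotated start. In Hnrnpul1, by contrast, the 5′ part was already covered over 88.5% and 83.9%.

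Hnrnpa3, Hnrnpa1 and Srsf10 did not show the rise toward the 3′ end in both replicates. Hnrnpa3 had 75.8% and 58.5% of its 5′ part covered and only 11.1% and 11.4% of its 3′ part, and its last 2808 bp had no peak in either replicate. Hnrnpa1 fell from 93.1% and 90.7% to 79.4% and 82.9%, with cover that began 144 bp and 195 bp from the start. Srsf10 had 50.3% and 49.7% in its 5′ part and 47.5% and 58.2% in its 3′ part, so its replicates differed in direction. These genes have much exon sequence that the genome carries more than once, as described below. So do Hnrnpf and Hnrnpc, which rose toward the 3′ end in both replicates. The part of repeated sequence in these profiles was not tested.

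The start of the genes was nearly free of peaks and the end was not. Over the 31 marked genes, the window of 500 bp either side of the start was covered over 1.07% ± 0.116, and over 0 in both replicates in the SR genes, against 2.56% ± 0.0626 in all marked coding genes. All the cover of this window in the 31 genes lay at Hnrnpa1, with 35.6% and 30.5%. The first covered base lay a median 1595 bp and 1704 bp from the start, against 2072 bp and 2294 bp in all marked coding genes. For the 11 genes with no other gene within 5 kb upstream, 5.19% ± 0.0566 of those 5 kb was covered, against 1.26% ± 0.228 for 3401 marked coding genes. All of it lay upstream of Srsf4, where 57.5% and 56.7% was covered. Around the annotated end, the same window was covered over 84.4% ± 0.297, against 58.5% ± 1.69. For the 11 genes with no other gene within 5 kb downstream, 40.8% ± 0.914 of those 5 kb was covered, against 18.2% ± 1.94 for 3185 marked coding genes. The cover therefore ran past the annotated end, as in Srsf3, where 92.5% and 96.6% of the 5 kb beyond it lay in peaks with no other gene annotated there.

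Exons and introns were covered almost alike. Over the 30 marked genes with at least 2 exon blocks, 73.6% ± 1.33 of exon bases and 69.4% ± 3.42 of intron bases lay in peaks, a ratio of 1.06 ± 0.0332. The ratio was 1.55 ± 0.0872 over all marked coding genes, whose introns were covered over 41.6% ± 2.97, and 1.24 ± 0.0451 over marked genes of the same length range. In SR genes exons led with a ratio of 1.2 ± 0.00968, and in hnRNP genes the replicates fell on either side of 1, with 0.981 and 1.05. The ratio was also taken within the 3′ part of the body (of 3 equal parts), where it was 0.911 over all 30 genes, 0.927 in SR genes and 0.900 in hnRNP genes, so exons were no longer ahead. It was not taken within that part for other coding genes, so it is not known whether this is usual.

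Gene by gene, exons were covered above introns in both replicates in 15 of the 30, against 67.2% of marked coding genes, and below them in 13 (43.3%), against 23.3%. Among the 15, Srsf4 had 92.9% of its exon bases covered in both replicates and 45.6% and 43.4% of its intron bases. Tra2b had 90.4% and 86.4% against 62.2% and 51.6%, and Hnrnph3 had 84.2% and 75.5% against 38.4% and 19.6%. In Srsf1 exons had 74.7% and 77.3% against 32.1% in both for the introns, and in Srsf2 no intron base was covered, although its introns hold only 236 bases.

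In the 13 genes with the opposite order, some introns were covered whole. The introns of Hnrnpa2b1 had 100% in both replicates against 70.0% and 75.9% of exons, those of Hnrnpul2 98.9% and 100% against 73.3% and 72.1%, and those of Srsf3 100% and 98.6% against 87.0% and 75.5%. Wide gaps belonged to Hnrnpa3, with 31.1% and 31.0% of exons against 85.5% and 73.2% of introns, and to Hnrnpf, with 10.2% and 9.71% against 48.2% and 43.2%. Srsf10 and Hnrnpa1 also belonged to this set, with 35.9% and 51.9% of exons against 75% and 78.9% of introns, and 80.4% and 82.1% against 94.2% and 93.7%.

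**Figure D3:**
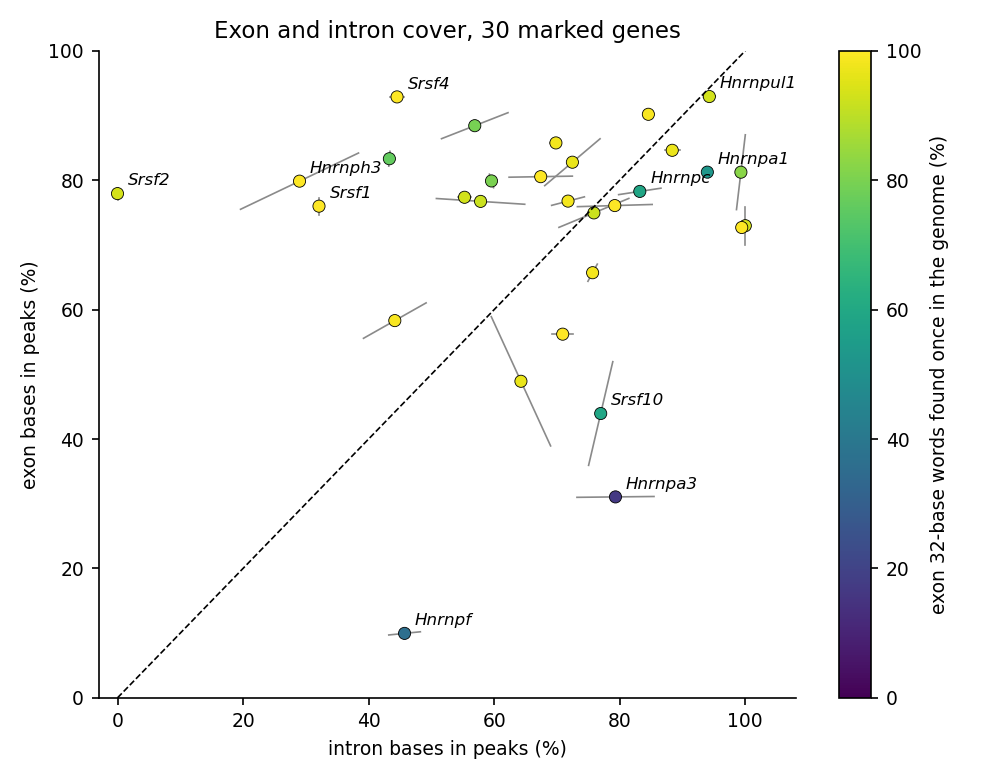
Percent of exon bases (y axis) against percent of intron bases (x axis) in H3K36me3 peaks for the 30 marked genes with at least 2 exon blocks; points are means of the 2 replicates, grey lines join the replicates, the dashed line marks equal cover, and colour gives the share of exon words of 32 bases that occur once in the genome. Hnrnpf and Hnrnpa3 lie lowest on the exon axis and have 36.3% and 16.5% of exon words found once.

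Several of these low exons hold sequence that the genome carries more than once. Intronless copies of abundant mRNAs, called processed pseudogenes, repeat the exons of a gene and not its introns, and a short read from a repeated stretch has no single place of origin. Of the words of 32 bases that start in exons of the 31 marked genes, 88.3% occur once in the assembled chromosomes, and of those in introns 94.7%. The share found once was 16.5% in the exons of Hnrnpa3, 36.3% in Hnrnpf, 52.8% in Hnrnpa1, 58.6% in Hnrnpc and 59.1% in Srsf10. These 5 are the lowest of the marked genes, and in all 5 exons were covered below introns in both replicates, in Hnrnpc with 78.8% and 77.8% against 86.6% and 79.8%. The next lowest, Srsf5 (75.9%), Tra2b (79.6%) and Hnrnpk (79.9%), had exons above introns in both replicates. The rest of the 13 genes with exons below introns had mostly unique exons, from 82.1% in Srsf3 to 99.8% in Srsf9. In Hnrnph2, which was not marked, 60.4% of exon words were found once. Its exon bases found once had 39.9% and 19.5% in peaks, and its repeated ones 15.8% and 2.02%. How the authors treated reads with several matches is not given in the sources used here.

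The most repeated 60 bases of coding sequence in Hnrnpa3 and Hnrnpf are printed to show such stretches, both on the plus strand, at chr2:75661925-75661984 and chr6:117924900-117924959.
Hnrnpa3: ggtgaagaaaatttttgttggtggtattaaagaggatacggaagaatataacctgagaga
Hnrnpf: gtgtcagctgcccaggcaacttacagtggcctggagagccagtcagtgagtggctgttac

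Besides the gene itself, the Hnrnpa3 stretch had 21 exact copies, 20 of them in annotated pseudogenes, and the Hnrnpf stretch had 6, of which 5 were in annotated pseudogenes. No copy of either had a base in a peak in either replicate. The 2 stretches differed in their own genes, since the Hnrnpa3 stretch lay wholly in peaks in both replicates and the Hnrnpf stretch had no covered base. The 3 pseudogenes that carry a symbol of these families, Hnrnpa1l2-ps, Hnrnpa1l2-ps2 and Tra2b-ps, had no covered base.

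Pooled over genes, repeated bases were covered less in exons and in introns, though not in every gene. Over the marked genes, 75.9% ± 1.65 of exon bases whose word occurs once were in peaks, against 51.8% ± 0.942 of those whose word is repeated, and in introns 70.4% ± 3.58 against 51.4% ± 0.606. On bases with a word found once, the ratio of exon to intron cover was 1.08 ± 0.0314. Of the 22964 repeated exon bases, Hnrnpa3, Srsf10 and Hnrnpf held 4506, 2864 and 1942, so these genes weigh on the pooled value. In some genes the order was the opposite. Repeated exon bases had 100% in both replicates in Hnrnpl against 85.5% of those found once, and 99.1% against 75.8% in Hnrnpdl. Within Hnrnpa3, exon bases found once had 59.3% in both replicates and repeated ones 25.5% and 25.4%. Within Hnrnpf both kinds were low, with 11.7% and 11.9% of bases found once and 9.37% and 8.44% of repeated bases. The part of repeated sequence in the low exon cover was not tested.

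Exons used by decay transcripts were first taken as segments that overlap no exon of a coding or a retained-intron transcript. This gave 10 segments in 7 of the marked genes, namely 3 in Hnrnpu, 2 in Hnrnpa1 and 1 each in Hnrnpd, Srsf4, Tra2a, Srsf9 and Hnrnpll. Of these 7 were covered over their whole length in both replicates and 2 had no covered base, and in all marked coding genes 857 of 1758 were covered whole and 603 not at all. Pooled, 65.8% ± 8.25 of the segments' bases lay in peaks, against 79.7% ± 1.14 of the coding sequence of the same genes, 58.4% ± 1.26 of their other introns and 61.9% ± 6.96 of the 500 bp on either side. By replicate, the segments had 71.6% and 59.9% and the 500 bp on either side 57.0% and 66.9%, so their order changed with the replicate. The gap over the other introns was 7.32 points ± 6.98, about as large as its spread. In all marked coding genes such segments had 55.0% ± 0.787, coding sequence 77.4% ± 0.331 and other introns 40.9% ± 3.09.

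Another definition, chosen after seeing the data, differed in 2 choices: segments may overlap an exon of a retained-intron transcript, and they must lie within the span of the coding transcripts. It gave 15 segments in 10 genes, without those of Hnrnpu and Hnrnpa1, which lie near the 3′ end of their genes, and with segments of Srsf3, Srsf7, Srsf11, Hnrnpl and Tra2b. Of the 15 segments 10 were covered over their whole length in both replicates, 3 were covered in part in at least 1 replicate and 2 had no covered base, and in all marked coding genes 518 of 1005 were covered whole and 302 not at all. Pooled, 79.4% ± 8.67 of their bases lay in peaks, against 82.6% ± 2.12 of coding sequence and 60.3% ± 2.27 of other introns. The 500 bp on either side had 66.1% and 71.2% in replicates 1 and 2, below the 85.5% and 73.3% of the segments in each. In all marked coding genes the values were 61.0% ± 2.07 for segments, 78.7% ± 0.524 for coding sequence and 42.3% ± 3.16 for other introns. The 500 bp on either side had 57.9% and 54.2% there, against 62.5% and 59.6% of the segments, so the same order held.

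Under this second definition the fully covered segments came from 6 genes. In Srsf3 the exon of 456 bp (chr17:29039454-29039909) and a second decay segment of 70 bp were covered whole in both replicates, and so was the exon of 460 bp in Srsf7 (chr17:80204622-80205081). Srsf4 had 3 covered segments of 207, 184 and 198 bp, and Srsf11 had 2 of 117 and 109 bp. Hnrnpd and Hnrnpl had 1 each, of 107 and 70 bp.

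Tra2a and Tra2b were the genes in which the replicates differed. The Tra2a exon of 306 bp (chr6:49252803-49253108) was covered over 100% in replicate 1 and 40.8% in replicate 2. In Tra2b the exon of 397 bp (chr16:22258865-22259261) had 93.2% and 61.0% and a second segment of 114 bp had 100% and 22.8%. In replicate 2 a peak border fell within each of the 3 segments, and replicate 1 covered more of each.

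The uncovered exons were those of Srsf9 and Hnrnpll. The Srsf9 exon of 358 bp (chr5:115328347-115328704) lies 19.8% of the way along a gene whose first covered base was 2033 bp and 1714 bp from the start, so it falls in the uncovered 5′ part. The Hnrnpll exon of 83 bp (chr17:80044940-80045022) lies at 52.7% of its gene, in a gap between peaks in both replicates.

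**Figure D4:**
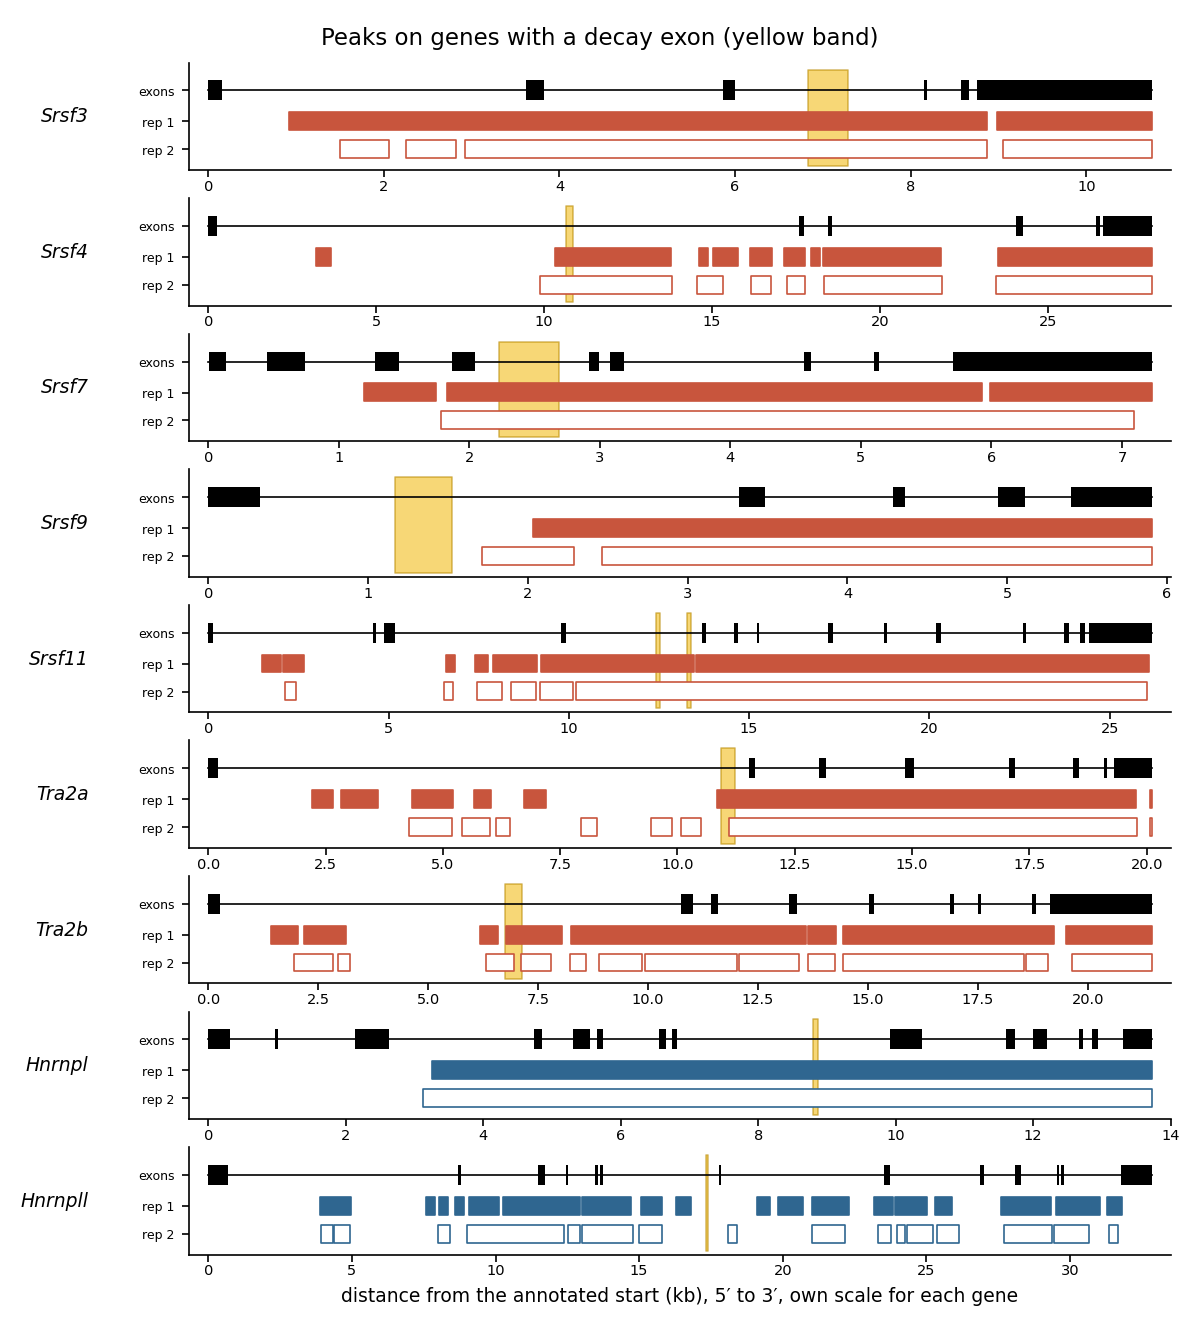
Maps of 9 genes that hold a decay exon with its stop codon, by distance from the annotated start (x axis, kb, each gene on its own scale); black boxes are exons of coding transcripts, the yellow bands are the decay exons, and filled and open bars are H3K36me3 peaks of replicates 1 and 2. The bands of Srsf3, Srsf7, Srsf4, Srsf11 and Hnrnpl lie inside peaks of both replicates, and those of Srsf9 and Hnrnpll lie outside them.

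Introns that a transcript is annotated to retain were covered more than the others. In 24 marked genes with both kinds, 78.5% ± 3.14 of retained intron bases lay in peaks, against 70.7% ± 3.96 of other intron bases. In 5101 marked coding genes the values were 64.1% ± 1.72 and 43.3% ± 2.96, a wider gap. Retained introns were above the others in both replicates in 18 of the 24 (75%), and in 65.3% of those marked coding genes, so the share was not far from that of other genes. Srsf5 had 91.7% and 92.1% of its retained intron bases covered against 43.4% and 43.2%, Tra2b 96.7% and 90.9% against 62.0% and 53.0%, and Hnrnpk 93.8% and 92.8% against 59.9% and 59.2%. Tra2a went the other way, with 51.2% and 25.6% against 60.5% and 68.3%, as did Hnrnpul2, with 51.1% and 46.4% against 98.9% and 100%.

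Apart from Hnrnpab, 6 genes share bases with another coding gene, where peaks cannot be told apart. Srsf2 lies wholly within Mettl23, which was covered over 60.8% ± 1.33, and partly overlaps Mfsd11. Hnrnph3 shares 26.7% of its body with Rufy2 and Hnrnpul2 shares 30.9% with AC129217.1. The overlaps of Hnrnpk with Rmi1, Hnrnpu with Cox20 and Hnrnpm with March2 took 8.98%, 9.50% and 2.88% of the body. Of the 26 other genes, 24 were marked.

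The genes that act on SR proteins and hnRNPs were mostly marked as well. Of 11 genes for SR protein kinases and phosphatase 1, 10 were marked, led by the dual-specificity kinase gene Clk2 with 90.4% and 88.6%, and Srpk2 was not, with 8.92% and 6.53%. All 6 genes for nuclear import and arginine methylation were marked, among them Prmt5 with 91.0% and 91.4% and Tnpo3, the importin for SR proteins, with 69.8% and 61.8%. All 14 genes for nonsense-mediated decay were marked, from Smg5 with 94.8% and 92.0% and Upf1, the central helicase, with 92.8% and 90.1%, to Smg6 with 16.9% and 13.9%. All 18 genes for SR-related proteins were marked, with Snrnp70, a U1 snRNP protein gene, at 92.4% and 91.9%. These counts are read against the 37.2% of all coding genes marked.

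Among other splicing regulators, the marked share was high in the broadly used list and low in the tissue-restricted one. Of 29 broadly used RNA-binding regulators 25 were marked, with Rbm39 at 91.4% and 91.2%. The exceptions were Ptbp3, Qk, Mbnl2 and Mbnl1, of which Mbnl1, a regulator that rises in differentiated tissue, had no covered base. Of 22 tissue-restricted regulators 5 were marked (22.7%), against 37.2% of all coding genes. In this list 10 genes had no covered base, among them Celf3, Celf6 and Elavl4. The same held for 10978 of all 21911 coding genes, so the lack of cover was not particular to this list. The epithelial regulators Esrp2, with 58.4% and 59.5%, and Esrp1, with 68.2% and 36.5%, led that list, and Rbfox2, Ptbp2 and Elavl3 lay just above the threshold, with Elavl3 at 10.01% and 10.9%.

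**Figure D5:**
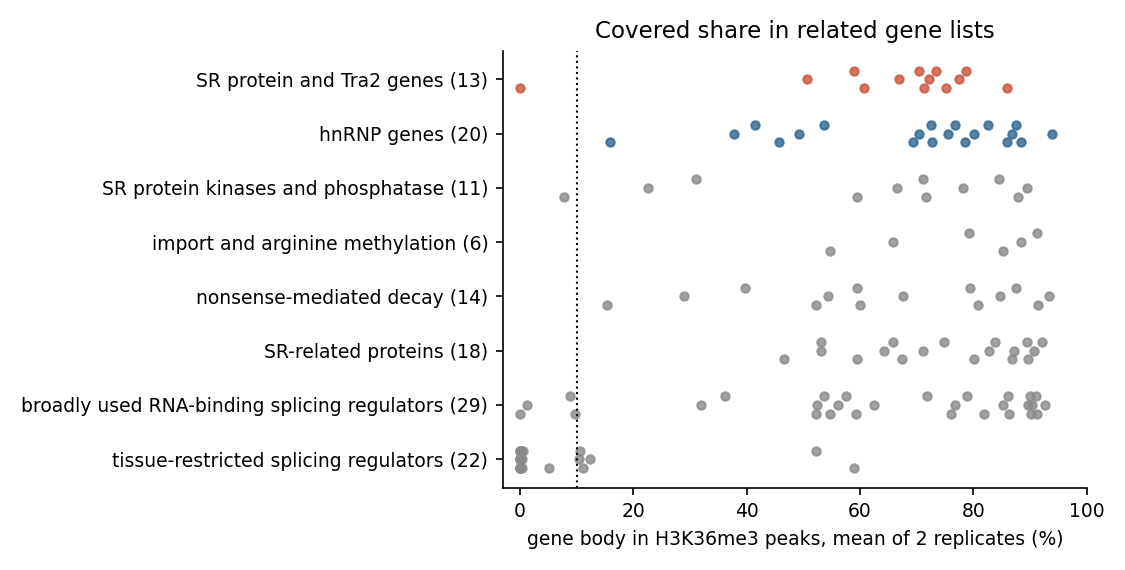
Share of each gene body in H3K36me3 peaks (x axis, percent, mean of the 2 replicates) for the SR protein and Tra2 genes, the hnRNP genes and 6 lists of related genes, 1 point per gene with the number of genes in brackets; the dotted line marks 10%. The tissue-restricted list lies mostly near 0, with Esrp2 and Esrp1 apart at 58.9% and 52.3%.

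Marker genes were read against the labelled cell type. All 8 ES cell markers were marked, with Nanog at 71.6% and 61.9%, Pou5f1 at 68.8% and 64.8%, and Esrrb lowest at 37.1% and 33.8%. The 8 fibroblast markers, which feeder cells would carry, and the 5 primitive endoderm markers had no covered base in either replicate. This was also the case for 10978 of all 21911 coding genes. Of 6 neural markers 2 were marked (33.3%), Tubb3 with 35.2% and 34.5% and Pax6 with 16.8% and 21.9%. That share was near the 37.2% of all coding genes marked.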

How the data were processed

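The study's H3K36me3 ChIP-seq libraries from 2 biological replicates of E14TG2a.4 cells make 1 group, so no comparison between groups was made. Per the deposited file lists, the authors called narrow peaks on mm10 in each replicate and kept those that pseudoreplicates supported; these sets gave all main values. Each deposited peak carries the authors' fold enrichment (a ratio over background) and a q-value written as −log10. Aligner, peak caller and read filters: not given in the sources used here. Control libraries were not used here.

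Peaks on the 21 assembled chromosomes were merged and intersected with GENCODE M21 gene bodies, with 1 record kept per symbol (Python 3.11.15, NumPy 2.4.6). Exon blocks merge all transcripts of a gene. A gene with at least 10% of its body in peaks in each replicate was called marked. Fold was averaged over the body with 0 outside peaks. Words of 32 bases were counted on both strands of GRCm38. Positions count from the annotated start. Values are means ± SD over 2 replicates; with 1 group and no condition, no test was run. The overlap arithmetic was tested on simulated data. The genes and the lists beside them were chosen with earlier results of these data known. All 33 genes were described. Genes outside them were named where they overlap one of the 33 or as examples from the lists. Most of these examples stand at either end of a list by cover, and some, such as Pou5f1, do not.

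The alternatives were the unthresholded peak sets, the set of peaks replicated in both libraries, the pooled set, a −log10 q of at least 5, each replicate alone, thresholds of 5%, 25% and 50%, other exon, span and segment definitions and equal weights. The restriction to words found once and the second decay exon definition were chosen after seeing the data. Strain 129/Ola differs from the reference strain, which word counts do not reflect.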

Additional observations from a re-analysis of the deposited data

How the results depend on the processing

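The number of marked genes was 31, and 32 with the unthresholded, replicated and pooled peak sets, with replicate 1 alone and at a threshold of 5%, where only Srsf12 was not marked. It was 31 with −log10 q of at least 5, with replicate 2 alone and at 25%, 26 at 50%, and 24 when genes that overlap another coding gene are left out. The median covered share moved from 72.6% to 74.0% with the unthresholded sets and to 77.7% with the replicated and pooled sets, which cover more bases, and without a replicate it ranged from 71.9% to 73.4%. The ratio of exon to intron cover, 1.06, was 1.01 with the unthresholded sets, 1.02 with the replicated and pooled sets, 1.01 with exons of coding transcripts only and 0.911 in the 3′ part, and 1.03 to 1.08 without a replicate. For SR genes it reversed only in the 3′ part (0.927). For hnRNP genes, 1.01, it reversed with the unthresholded (0.984), replicated (0.987) and pooled (0.983) sets, without replicate 2 (0.981; 1.05 without replicate 1), with coding exons only (0.959), with equal weights (0.980) and in the 3′ part (0.900). The gap between the ratios of the families, 0.188, was 0.290 with equal weights and 0.0264 in the 3′ part, and 0.148 to 0.228 without a replicate. The step from the 5′ to the 3′ part, 44.2 points, was 37.4, 38.2 and 38.0 with the unthresholded, replicated and pooled sets, 41.7 among genes that overlap no other, and 42.1 to 45.6 without a replicate. The gap of decay exons over other introns was 7.32 points and 19.1 with the second definition, which differs in 2 choices, and 2.38 to 12.3 without a replicate. The cause of these shifts was not tested. Read depth is unknown, and peaks give no measure below the level at which they were called, so an uncovered gene may carry some of the mark.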
